A study of Homo sapiens with 70 samples.

Results

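The cholesterol and fatty acid synthesis genes described here were 28 of the 78932 genes in the deposited table, matched by gene symbol. Of these, 18 encode enzymes of the sterol arm, from acetyl-CoA to cholesterol. The fatty acid arm had 6 members, which build, elongate and desaturate fatty acids. The last 4 members regulate the pathway or move sterol: SREBF1, SREBF2, INSIG1 and STARD4. All but STARD4 passed the filter on low counts and were tested, 27 members in each fit. STARD4, a carrier of sterol between membranes, was listed at 1 count in 1 of the 70 libraries and has no further values.

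Cells make cholesterol from acetyl-CoA through mevalonate, farnesyl pyrophosphate, squalene and lanosterol, and make fatty acids from acetyl-CoA through malonyl-CoA. Both arms are switched on by the sterol regulatory element-binding proteins (SREBPs), membrane-held transcription factors. When sterol in the endoplasmic reticulum is low, SCAP carries them to the Golgi, where proteases free their active part; when it is high, INSIG proteins keep SCAP and its cargo in place. The SREBP from SREBF2 favours cholesterol genes and that from SREBF1 favours fatty acid genes. Tumour cells of the pancreas use both routes to supply membranes.

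The study asked how knockdown of ZBTB11, a zinc finger transcription factor, changes the transcriptome of MIA PaCa-2 cells, a human pancreatic ductal adenocarcinoma line, in a derivative resistant to the drug sotorasib. All 24 groups carried the repressor dCas9-KRAB, which doxycycline (DOX) induces. Cells carried the control guide sgNS or a ZBTB11 guide, sgZBTB11 #1 or sgZBTB11 #2, and received DMSO, the vehicle, or DOX for 5 hr, 1 day, 3 days or 5 days. Polyadenylated RNA was sequenced in 3 libraries a group, with 2 in the day 1 DMSO group of sgNS and the day 5 DMSO group of sgZBTB11 #1. No label ties a guide to more than 1 cell pool or says that libraries came from separate cultures, so the spread behind each p-value may be technical. DOX itself and induced dCas9-KRAB are shared by all DOX groups, and sgNS measures them without a ZBTB11 guide.

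Libraries held 12068842 to 20627642 counts. ZBTB11 itself fell most with sgZBTB11 #2, from 54.3, 52 and 52 CPM (the count divided by the library total and scaled to a common size) with DMSO at day 5 to 28.5, 27.9 and 28.7 with DOX. With sgZBTB11 #1 it went from 46.9 and 50.5 to 38.4, 35.7 and 35 CPM, and with sgNS from 57.3, 51.2 and 60.1 to 52.2, 46.9 and 53.4. At 5 hr it had fallen by 0.17 on the log2 scale with sgZBTB11 #2, while sgZBTB11 #1 showed -0.004 (adjusted p = 0.96) and sgNS a rise of 0.17. KRT8 and KRT18, keratins of ductal epithelium, were high in every library, at 333 to 2650 and 957 to 4211 TPM (the same after division by transcript length), whereas EPCAM and CDH1, also epithelial, reached at most 0.13 and 0.17 TPM, and VIM, a mesenchymal filament, 2786 to 4319. Defining markers of immune (PTPRC), acinar (PRSS1, CELA3A) and fat cells (ADIPOQ) reached at most 0.04, 0.11, 0.08 and 0.01 TPM. Other markers listed for these cells reached more. CD68 and CD14 (immune) had 0.11 to 6.98 and 0.33 to 1.45 TPM, and CPA1 (acinar) reached 0.7. ALB, APOA1 and PLIN1 (liver or fat) reached 1.44, 0.59 and 0.45. CDH5 and COL3A1, markers of endothelium and fibroblasts, reached 12.6 and 9.74 TPM. The other endothelial markers listed, PECAM1 and VWF, reached at most 0.19 and 0.18 TPM. The other fibroblast markers, COL1A1, DCN and LUM, reached at most 1.3, 0.3 and 0.37 TPM. The share of counts from mitochondrial DNA ran from 11.9 to 14.3% (5 hr) and 9.9 to 12.6% (day 1) to 17.8 to 22.2% (day 3) and 26 to 33.7% (day 5), and its part in the changes over time was not tested. In bulk RNA, fewer cells of a kind and less RNA per cell cannot be told apart.

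Levels between genes are compared on the TPM scale, which corrects for transcript length, as medians over the 9 DMSO libraries of 5 hr. FDPS, which makes farnesyl pyrophosphate, was highest at 152 TPM (145 to 169). FASN, the fatty acid synthase, followed at 115 TPM (104 to 120), EBP, a sterol isomerase, at 85.2 (76.4 to 94.9), SCD, which puts a double bond into saturated fatty acids, at 78.4 (67 to 93.2) and SREBF1 at 59.6 (51.7 to 69.8). The ranges of EBP and SCD overlapped, and those of FDPS and FASN did not. The lowest medians of the members with counts were those of ELOVL6, an elongase of saturated fatty acids, at 1.87 TPM (1.43 to 3.57), MVK, the mevalonate kinase, at 4.32 (3.48 to 5.06), and HSD17B7, a sterol ketoreductase, at 4.43 (3.13 to 5.77). These ranges overlapped each other. Those of SC5D (3.77 to 5.61) and INSIG1 (3.5 to 5.42), among others, overlapped the ranges of MVK and HSD17B7. By day 5 the order had changed: SREBF1 stood highest at 120 TPM (107 to 141), above FDPS at 89.2 (83.7 to 101) and SCD at 86 (79.4 to 103), while FASN stood at 57.8 (55.5 to 61.8).

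In DMSO, where no knockdown was induced, the members changed with time in culture. The medians of the sterol and fatty acid arms differed in sign from day 1 to day 3 only, and the regulators rose up to day 3. From 5 hr to day 1, 20 of the 27 members rose, SCD with the other sign once the length trend was removed (-0.04), and 5 fell. Of these 5, TM7SF2, MSMO1 and FASN were positive in a fit of log2 TPM, where the median of all genes moved by 0.13, and stood at -0.05, -0.10 and -0.10 relative to that median. From day 1 to day 3, 11 rose and 12 fell. From day 3 to day 5, 6 rose, of which MVD, LSS, SREBF1 and SREBF2 were negative in log2 TPM and 0.12, 0.03, 0.05 and 0.02 above its all-gene median of -0.18, and 18 fell. Change was general: 67.2%, 79.8% and 65.3% of all 17598 genes tested passed at these steps, in near-equal numbers up and down (34.1% up and 33.1% down, 41.4% and 38.4%, 30.8% and 34.6%). The members past the threshold, 25, 23 and 24 of 27, were above that share at the first and last steps and near it at the middle one. Their direction was less even than that of all genes in the first and last steps. Neighbouring steps share libraries, so a high day 1 raises the first step and lowers the next. The labels give no collection dates, so time in culture and collection cannot be told apart.

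The sterol arm rose first and fell later. Its 18 genes passed as 13 up and 3 down from 5 hr to day 1, with a median log2 change of 0.25 beside 0.02 over all genes. It then passed as 5 up and 10 down (median -0.19 beside 0.05), and as 3 up, MVD and LSS negative in log2 TPM but above its all-gene median, and 13 down (median -0.34 beside -0.02). Over the whole span from 5 hr to day 5 the arm was split, with 8 genes higher and 10 lower (85.9% of all genes passed). The fatty acid arm passed as 4 of 6 up and 2 down, then 3 up and 2 down, then 1 up and 4 down, with medians of 0.15, 0.06 and -0.26. These medians were smaller in size than those of the sterol arm and had the same sign in the first and last steps. No test compared the arms. All 3 regulators with counts rose in each of the first 2 steps, with medians of 0.50 and 0.40. In the last step SREBF1 and SREBF2 rose on the CPM scale and were at -0.12 and -0.16 in log2 TPM, which is 0.05 and 0.02 above the median of all genes there, and INSIG1 fell.

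**Figure D1:**
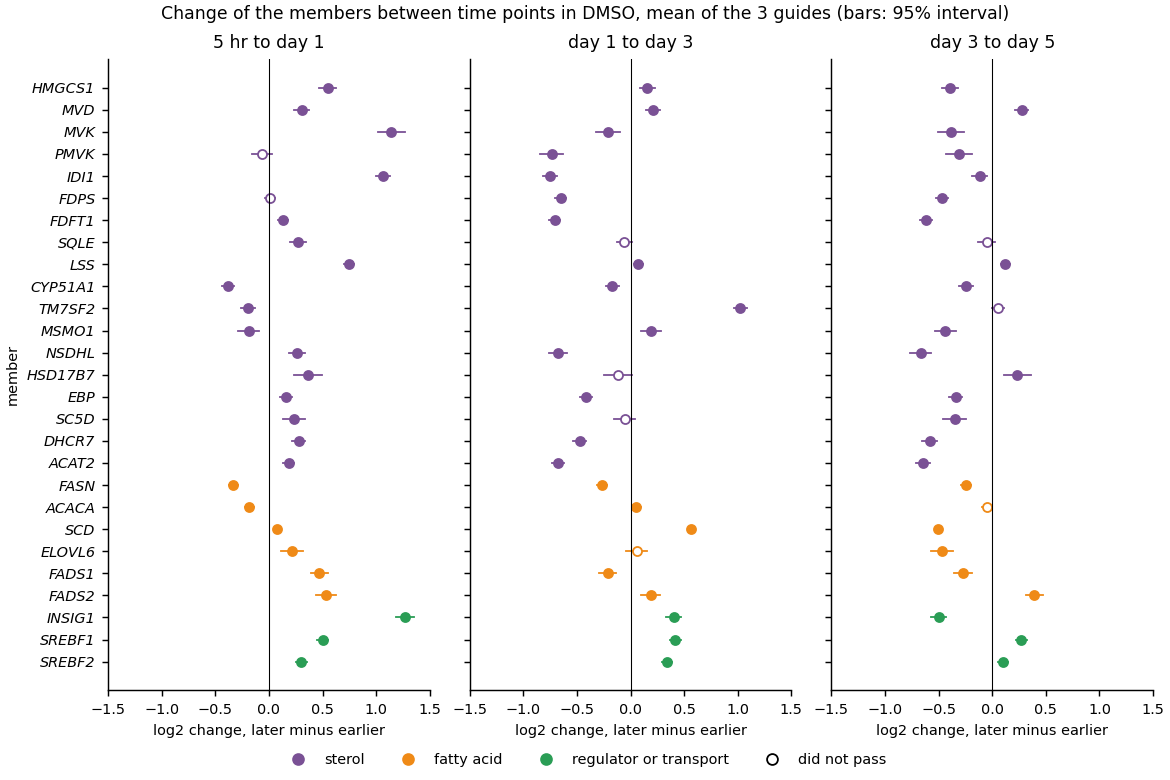
Log2 change of each tested member (rows) between neighbouring time points in DMSO, as the mean over the 3 guides, with bars for the 95% interval. Sterol genes (purple) lie mostly to the right of 0 from 5 hr to day 1 and to the left from day 3 to day 5, and regulators (green) lie to the right except INSIG1 in the last step. Small changes of TM7SF2, MSMO1 and FASN in the first panel, and of MVD, LSS, SREBF1 and SREBF2 in the last, have the other sign in a fit of log2 TPM but keep their side of its all-gene median, and that of SCD in the first turns with the length trend removed.

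Among the early sterol genes, HMGCS1 and MVK rose to day 1. HMGCS1, which makes HMG-CoA at the entry to the mevalonate route (ENSG00000112972, chr5:43287470-43313412, GRCh38.p14), had 18.3, 22.6 and 26 CPM as lowest, median and highest of the DMSO libraries at 5 hr and 31.1, 32.7 and 34.7 at day 1. No library of day 1 was as low as any of 5 hr, and the log2 change was 0.55 ± 0.04 (SE, adjusted p = 8.3e-18). HMGCS1 then stood at 31.4, 37.5 and 42.3 CPM at day 3 and came down to 25.1, 28.5 and 30 at day 5. MVK, which phosphorylates mevalonate, went from 6.47, 7.38 and 9.24 to 14.1, 16.2 and 18.4 CPM, a log2 change of 1.14 ± 0.06 (adjusted p = 1.2e-22), and was at 9.96, 10.9 and 11.8 by day 5. MVK thus lost part of its early gain.

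IDI1, the isomerase that makes dimethylallyl pyrophosphate, had a peak at day 1 alone. Its lowest, median and highest CPM were 26, 28.1 and 28.8 at 5 hr and 52, 57.4 and 63.4 at day 1, then 29.6, 34.4 and 36.4 (day 3) and 27.7, 32.2 and 34.3 (day 5). The rise was 1.06 ± 0.03 and the fall to day 3 was -0.75 ± 0.03 on the log2 scale (adjusted p = 1.7e-33 and 9.2e-28). MVD, which decarboxylates mevalonate pyrophosphate, took another course and rose by 0.31, 0.21 and 0.27 on the log2 CPM scale, the last step being -0.05 in log2 TPM and 0.12 relative to its all-gene median. PMVK, the kinase between MVK and MVD, did not pass from 5 hr to day 1 (-0.06 ± 0.05, adjusted p = 0.26) and then fell by 0.74 and 0.31. Neighbouring enzymes of the mevalonate route therefore differed in course.

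The genes from farnesyl pyrophosphate to squalene fell after day 1. FDFT1, the squalene synthase, had 80.8, 93.7 and 101 CPM at 5 hr and 94.8, 99.8 and 107 at day 1, then 53.6, 60.3 and 66.9 (day 3) and 36.8, 39.6 and 41.7 (day 5). All DMSO libraries of day 5 were below all of day 3, and all of day 3 were below all of day 1. FDFT1 changed by 0.13 ± 0.02, -0.71 ± 0.03 and -0.62 ± 0.03 at the 3 steps, and by -1.19 ± 0.03 over the whole span (adjusted p = 3.4e-41). FDPS, just before it in the route, did not pass at first (0.01 ± 0.02, adjusted p = 0.81) and then changed by -0.65 ± 0.02 and -0.47 ± 0.03. SQLE, the squalene epoxidase that is often named as a rate-limiting step, rose at first (25.2, 28.2 and 32.5 CPM to 30.4, 33.3 and 37.7; 0.27 ± 0.04) and did not pass at the later steps (-0.06, adjusted p = 0.16, and -0.05, adjusted p = 0.22). LSS, which closes squalene epoxide to lanosterol, stood at 39.5, 43.6 and 48.8 CPM at 5 hr and at 80.0, 83.1 and 86.3 at day 5. LSS rose by 0.75 ± 0.02 in the first step and by 0.95 ± 0.02 over the whole span, so most of its rise fell before day 1.

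Among the enzymes that turn lanosterol into cholesterol, TM7SF2 and CYP51A1 moved in opposite ways. TM7SF2, a sterol reductase, had 31.4, 34 and 35.5 CPM at day 1 and 63.9, 66.5 and 73 at day 3, with no overlap and a log2 change of 1.02 ± 0.03 (adjusted p = 8.5e-36), the largest of the 27 at that step. CYP51A1, the lanosterol demethylase, had 77.4, 82.8 and 98.5 CPM at 5 hr and 61.1, 64.4 and 73.1 at day 1, again with no overlap (-0.38 ± 0.03), and reached 45.8, 48.6 and 52 at day 5. CYP51A1 was the only member that fell from 5 hr to day 1 in all 3 guides taken alone, while 15.8% of all genes did. NSDHL, a dehydrogenase of sterol demethylation, went from 14, 17.8 and 19 CPM at day 3 to 9, 10.3 and 13.7 at day 5, with log2 changes of -0.68 ± 0.04 and -0.67 ± 0.05 at the last 2 steps. DHCR7, the final reductase before cholesterol, went from 55.6, 62.9 and 70.2 CPM at day 1 to 39.8, 44.2 and 46.7 at day 3 and 25, 30.2 and 31.7 at day 5. The groups of DHCR7 did not overlap in either step (-0.47 ± 0.03 and -0.58 ± 0.03).

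EBP followed the same order as DHCR7 with smaller changes (0.16, -0.42 and -0.34), and SC5D, a sterol desaturase, passed in the first and last steps (0.24 and -0.35). MSMO1, an oxygenase of sterol demethylation, fell by 0.44 ± 0.05 from day 3 to day 5, and its first step was -0.19 in the count fit and 0.03 in log2 TPM (-0.10 relative to all genes). HSD17B7 changed by 0.36 ± 0.07 and 0.24 ± 0.07 in the first and last steps, with closely similar pseudogene copies in the genome, so its counts are uncertain, as are those of FDPS. ACAT2, the thiolase that starts the sterol route, went from 62.2, 65.4 and 69.4 CPM at day 1 to 24.4, 25.8 and 29.5 at day 5, with changes of -0.68 ± 0.03 and -0.65 ± 0.03 at these 2 steps. ACAT2, FDFT1, FDPS, PMVK and NSDHL were the members that had fallen by more than 1 on the log2 scale by day 5 (-1.14, -1.19, -1.11, -1.11 and -1.08).

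In the fatty acid arm FASN and SCD, its most abundant members, diverged. FASN (ENSG00000169710, chr17:82078338-82098236) had 396, 522 and 563 CPM at 5 hr and 358, 395 and 424 at day 1, then 293, 314 and 370 (day 3) and 257, 269 and 288 (day 5). FASN changed by -0.33 ± 0.02 in the first step, a change of 0.03 in log2 TPM (-0.10 relative to all genes), and then by -0.26 ± 0.02 and -0.25 ± 0.02. The first step is a mean over guides that differed: it was -0.57 ± 0.04 in sgNS and -0.39 ± 0.04 in sgZBTB11 #1, while in sgZBTB11 #2 FASN did not pass (-0.03 ± 0.04, adjusted p = 0.51), a difference of 0.54 ± 0.06 from sgNS (adjusted p = 3.7e-09). Over the whole span it was lower under every alternative run, at -0.84 ± 0.02 in the main fit and -0.96 in log2 TPM. SCD (ENSG00000099194, chr10:100347233-100364826) had 439, 469 and 541 CPM at 5 hr and 466, 497 and 563 at day 1, then 711, 738 and 748 (day 3) and 508, 516 and 564 (day 5). The peak of SCD at day 3 stood above all DMSO libraries of the other times, with log2 changes of 0.56 ± 0.02 up and -0.50 ± 0.02 down (adjusted p = 6.8e-37 and 1.1e-33).

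The other fatty acid members took courses of their own. FADS1 and FADS2, the desaturases of polyunsaturated fatty acids, rose together to day 1 (0.47 ± 0.04 and 0.53 ± 0.05). FADS1 then fell (-0.21 and -0.27) while FADS2 rose (0.19 and 0.39), from 12.5, 15 and 17.5 CPM at 5 hr to 29, 31.3 and 34.5 at day 5. The genes overlap on chromosome 11 (61799627 to 61817003 for FADS1, 61816203 to 61867354 for FADS2), and without a stated strand setting reads in the overlap cannot be told apart. ACACA, which makes malonyl-CoA, was between 79 and 102 CPM in all DMSO libraries and changed by -0.18 ± 0.02 in the first step. ELOVL6 rose by 0.22 ± 0.05 and later fell by 0.47 ± 0.05, and its whole-span change was -0.20 in the count fit and 0.07 in log2 TPM.

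The regulators rose over the time course. INSIG1, which holds SREBPs in the endoplasmic reticulum and is itself an SREBP target (ENSG00000186480, chr7:155297878-155310235), had 10.6, 14.7 and 15.7 CPM at 5 hr and 30, 31.8 and 41.8 at day 1, then 39.2, 42.9 and 47.9 (day 3) and 27.7, 31 and 33.7 (day 5). Its first step of 1.27 ± 0.04 was the largest of the 27 members (adjusted p = 1.3e-32). SREBF1 had 139, 164 and 184 CPM at 5 hr and 215, 231 and 249 at day 1, then 281, 300.0 and 336 (day 3) and 359, 366 and 386 (day 5), with no overlap between any neighbouring times. In TPM the DMSO median of SREBF1 was 137 (124 to 140) at day 3 and 120 (107 to 141) at day 5. Over the whole span SREBF1 rose by 1.19 ± 0.03, INSIG1 by 1.17 ± 0.04 and SREBF2 by 0.75 ± 0.02. SREBF2 (ENSG00000198911, chr22:41833105-41907305) had 57.8, 62.3 and 64.5 CPM at 5 hr and 71.6, 75.6 and 80.7 at day 1, then 89.8, 94.4 and 98.8 (day 3) and 96.9, 103 and 108 (day 5).

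**Figure D2:**
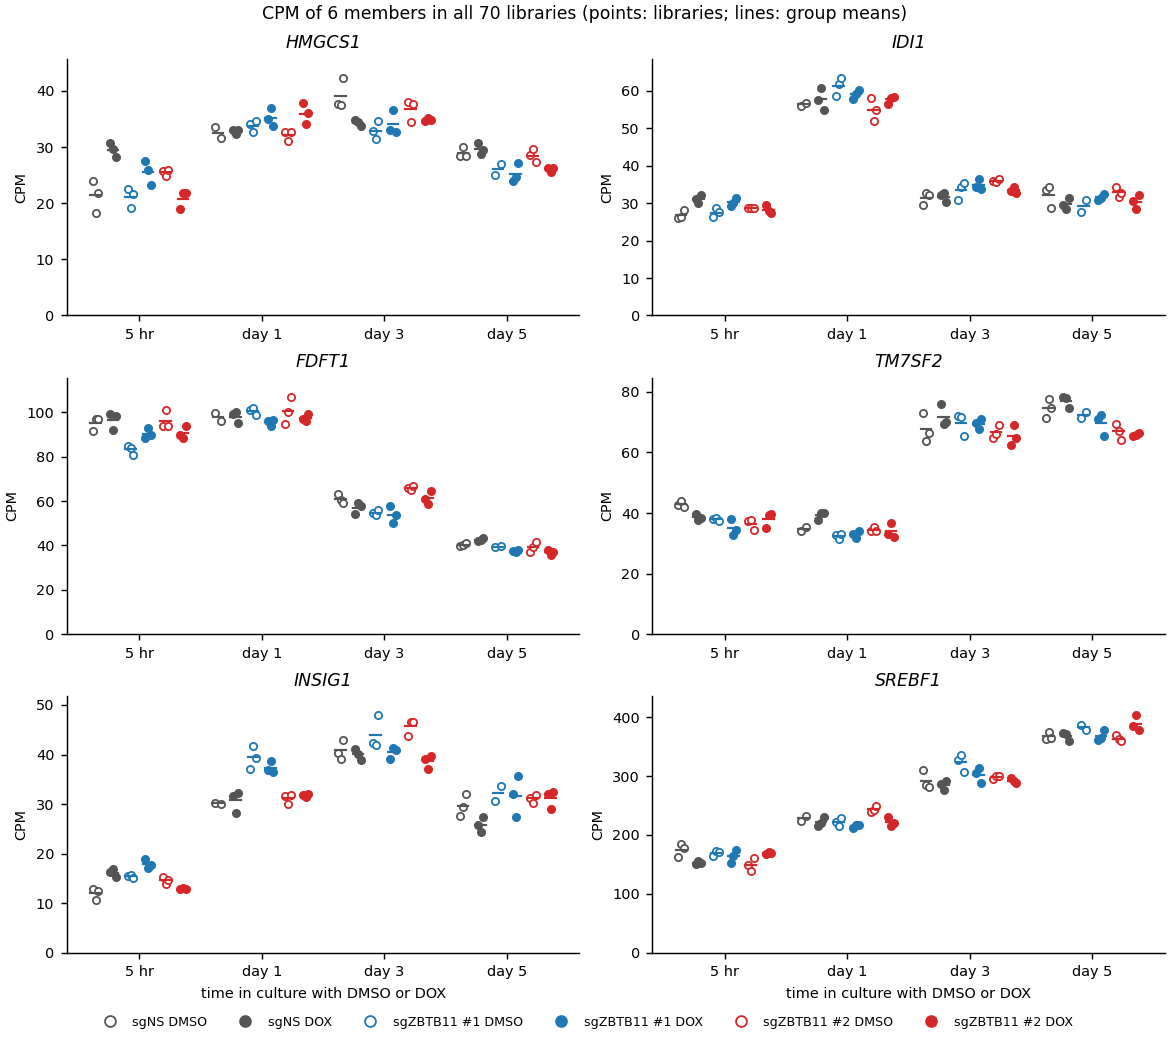
CPM of HMGCS1, IDI1, FDFT1, TM7SF2, INSIG1 and SREBF1 (y axis, from 0) in all 70 libraries by time (x axis), with a point for each library, open for DMSO and filled for DOX, coloured by guide, and a line for each group mean. IDI1 has its peak at day 1, FDFT1 falls after day 1, and TM7SF2 rises between day 1 and day 3. SREBF1 rises at each time in CPM, from at most 184 with DMSO at 5 hr to at least 359 at day 5. In TPM the DMSO median of SREBF1 was 137 at day 3 and 120 at day 5.

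The promoters of HMGCS1, INSIG1 and SREBF2 are shown because these genes stand at the entry of the sterol arm and at its control, and all were higher at day 1 than at 5 hr. The stretches run from 220 to 41 bases before the gene start on the gene's own strand, 180 bases each, from RefSeq on GRCh38.p14. Capitals mark exact matches to CCAAT, the box bound by NF-Y, here on the other strand and so written ATTGG, and to TCACNCCAC, a form of the sterol regulatory element bound by SREBPs.
HMGCS1 (chr5:43313453-43313632, minus strand): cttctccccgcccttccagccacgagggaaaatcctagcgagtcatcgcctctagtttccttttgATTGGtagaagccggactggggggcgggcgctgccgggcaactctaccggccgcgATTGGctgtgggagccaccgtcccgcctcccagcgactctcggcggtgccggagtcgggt
INSIG1 (chr7:155297658-155297837, plus strand): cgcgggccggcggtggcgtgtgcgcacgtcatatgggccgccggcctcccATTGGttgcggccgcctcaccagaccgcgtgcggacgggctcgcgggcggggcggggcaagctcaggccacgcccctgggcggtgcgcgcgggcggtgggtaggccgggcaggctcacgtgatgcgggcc
SREBF2 (chr22:41832885-41833064, plus strand): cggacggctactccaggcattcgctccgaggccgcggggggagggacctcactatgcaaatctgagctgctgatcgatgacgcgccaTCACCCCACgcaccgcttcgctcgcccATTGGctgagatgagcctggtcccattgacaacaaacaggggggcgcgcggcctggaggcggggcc
The HMGCS1 stretch holds 2 CCAAT matches, the INSIG1 stretch 1, and the SREBF2 stretch 1 of each motif. Another RefSeq promoter of HMGCS1 (chr5:43313132-43313431), not shown, holds no match to either motif in the 250 bases before its start. Across the RefSeq table, 24 of the 28 members had a promoter, 32 promoters in all, and FASN, SQLE, FDFT1 and ACAT2 did not match. In the 250 bases before the start, on either strand, CCAAT stood in 21 of the 32 member promoters (18 of 24 genes) beside 32% of all 35116 promoters, and TCACNCCAC stood in 1, that of SREBF2, beside 0.883%. No TCACNCCAC match overlapped a CCAAT match, while in IDI1 and NSDHL CCAAT matches on opposite strands overlapped each other. These are letters in a window and say nothing of which factor was bound.

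The guides mostly shared these courses. From 5 hr to day 1, 14 members rose in each guide taken alone (14.3% of all genes did), namely DHCR7, EBP, FADS1, FADS2, HMGCS1, HSD17B7, IDI1, INSIG1, LSS, MVD, MVK, NSDHL, SREBF1 and SREBF2. Only CYP51A1 fell in each guide at this step (15.8% of all genes did). From day 1 to day 3, 5 members rose (INSIG1, SCD, SREBF1, SREBF2, TM7SF2) and 9 fell in each guide (23.8% and 26.8% of all genes). From day 3 to day 5, FADS2, MVD and SREBF1 rose, the last 2 with the other sign in log2 TPM but above its all-gene median as a mean over guides, and 15 fell in each guide (14.8% and 17.2% of all genes). Tested directly, the step from 5 hr to day 1 differed from that of sgNS for 5 members in sgZBTB11 #1 (13.6% of all genes) and for 8 in sgZBTB11 #2 (16.9%). For the step to day 3 the numbers were 5 (18.6%) and 1 (5.88%), and for the last step 1 (3.25%) and 6 (6.91%).

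Other lipid genes in 7 lists (80 genes, all tested) varied in how they moved at these steps, and their directions were not recomputed on the TPM scale. Of 10 genes of SREBP processing, 8 rose and 2 fell to day 1, 3 rose and 7 fell to day 3, and 2 rose and 6 fell to day 5. INSIG2, a partner of INSIG1, rose by 0.77 ± 0.06 in the first step, and ERLIN1, which takes part in degradation of endoplasmic reticulum proteins, fell by 1.27 ± 0.04 in the second. Of 8 genes that supply acetyl-CoA and NADPH, 6 fell and 2 rose from day 1 to day 3 and 7 fell and 1 rose from day 3 to day 5. TKT, a pentose phosphate enzyme, fell by 1.00 on the log2 scale at the first of these steps. Among 12 genes of sterol uptake, storage and efflux, 7 rose and 4 fell to day 1, while 1 rose and 9 fell to day 5 from day 3. ABCG1 and ABCA1, sterol exporters induced by the oxysterol receptor LXR, rose by 1.63 ± 0.08 to day 1 and by 1.15 ± 0.09 from day 1 to day 3, and TMEM97, which binds NPC1, fell by 0.65 ± 0.04 from day 3 to day 5.

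The remaining lists were more even. Of 15 further fatty acid genes, 6 rose and 7 fell to day 1, 6 rose and 8 fell to day 3, and 3 rose and 9 fell to day 5, with ACACB, the mitochondrial acetyl-CoA carboxylase, up by 1.10 in the first step and HACD2, a dehydratase of elongation, down by 0.79 on the log2 scale in the last. Of 14 fatty acid oxidation genes, 7 rose and 5 fell, then 6 rose and 5 fell, then 3 rose and 9 fell; HADHA, part of the trifunctional protein, fell by 1.09 ± 0.02 from day 1 to day 3. Of 11 other sterol and isoprenoid genes, 6 rose and 1 fell, then 4 rose and 4 fell, then 5 rose and 6 fell, and LBR, another sterol reductase, fell by 0.99 ± 0.05 in the last step. Of 10 glycerolipid genes, 4 rose and 4 fell, then 5 rose and 3 fell, then 4 rose and 5 fell.

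After 5 hr of DOX many members differed from DMSO, mostly higher with sgNS and sgZBTB11 #1 and mostly lower with sgZBTB11 #2. With sgNS, 12 members were higher and 4 lower (40.9% of all 15623 genes passed), though of the lower ones FASN, SREBF1 and TM7SF2 were positive in log2 TPM, where they lay at -0.08, -0.05 and -0.13 relative to an all-gene median of 0.17. With sgZBTB11 #1, 15 were higher and 1, FASN, was lower in counts and at 0.03 in log2 TPM, or -0.05 relative to all genes (32.8%). With sgZBTB11 #2, 3 were higher and 5 lower (17%). Of the 12 higher with sgNS, 11 (91.7%, beside 59.6% over all genes) were also higher with sgZBTB11 #1. That is 73.3% of its 15, near the 71.5% over all genes. With sgZBTB11 #2, 5 of these 11 were lower (45.5%), none was higher and 6 did not pass. Over all genes, 1944 were higher with both sgNS and sgZBTB11 #1, and 43% of them were lower with sgZBTB11 #2. The members' share of opposite calls was near that of all genes. The share of counts from mitochondrial DNA took the opposite course, from 13.7 to 14.3% with DMSO to 11.9 to 12.4% with DOX in sgNS, from 14 to 14.1% to 12.2 to 12.4% in sgZBTB11 #1, and from 12.5 to 12.7% to 13.1 to 13.4% in sgZBTB11 #2. Its part in these responses was not tested.

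In the sterol arm HMGCS1 showed the largest response with sgNS. With DMSO it had 24, 18.3 and 21.9 CPM and with DOX 30.7, 29.7 and 28.2 in sgNS, and 22.6, 19.2 and 21.7 against 27.6, 26 and 23.3 in sgZBTB11 #1. In sgZBTB11 #2 it had 25.7, 24.8 and 26 CPM with DMSO and 18.9, 21.8 and 21.8 with DOX. In each guide the DMSO and DOX libraries did not overlap, and the log2 changes were 0.49 ± 0.08, 0.28 ± 0.08 and -0.28 ± 0.08 (adjusted p = 4.2e-06, 0.0048 and 0.013). MSMO1 showed the same, with 15.4, 14.7 and 15.1 CPM against 19.3, 18.4 and 20 in sgNS, 20.3, 18 and 18.8 against 25.5, 22.1 and 23.1 in sgZBTB11 #1, and 21.2, 20.2 and 20.6 against 15.6, 15.8 and 16.9 in sgZBTB11 #2. Its log2 changes were 0.37 ± 0.07, 0.32 ± 0.07 and -0.34 ± 0.07. CYP51A1 changed by 0.32, 0.17 and -0.18 in the same order, each past the threshold.

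SQLE rose with sgNS (25.3, 25.2 and 26.2 CPM to 30.9, 32.9 and 33.1) and with sgZBTB11 #1 (28.2, 27.2 and 28.4 to 34.2, 34.3 and 34.4), by 0.36 ± 0.06 and 0.30 ± 0.06. With sgZBTB11 #2, SQLE libraries overlapped (29.1, 32.5 and 29 with DMSO, 30, 26.7 and 27.7 with DOX) and the change of -0.09 ± 0.06 did not pass (adjusted p = 0.33). DHCR7 and SC5D, late in the route, changed most with sgZBTB11 #1: DHCR7 from 46.9, 52.3 and 48.9 to 58.7, 64.4 and 64.3 CPM (0.34 ± 0.05) and SC5D from 13.1, 11.1 and 10.8 to 15.7, 13.3 and 15 (0.33 ± 0.09). EBP was lower with sgNS alone by the threshold (-0.23 ± 0.04), with -0.10 (adjusted p = 0.06) in sgZBTB11 #1 and 0.00 in sgZBTB11 #2. FDPS, PMVK, MVD, MVK, NSDHL and HSD17B7 did not pass in any guide.

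SCD followed the order of HMGCS1. It had 439, 441 and 447 CPM with DMSO and 528, 542 and 544 with DOX in sgNS, 468, 469 and 473 against 586, 581 and 586 in sgZBTB11 #1, and 541, 538 and 519 against 453, 451 and 443 in sgZBTB11 #2. Its groups did not overlap in any guide, with log2 changes of 0.30 ± 0.02, 0.32 ± 0.02 and -0.23 ± 0.02 (adjusted p = 7.7e-13, 5.8e-13 and 8.7e-09). INSIG1 rose with sgNS (12.9, 10.6 and 12.5 CPM to 16.2, 16.9 and 15.3; 0.45 ± 0.08) and with sgZBTB11 #1 (15.5, 15.7 and 15 to 18.9, 17.2 and 17.8; 0.23 ± 0.07). With sgZBTB11 #2 all INSIG1 libraries with DOX (12.9, 13 and 12.8 CPM) were below those with DMSO (15.3, 13.9 and 14.7), yet the change of -0.17 ± 0.08 did not pass (adjusted p = 0.15).

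FASN ran the other way, from 524, 550 and 563 CPM to 423, 443 and 435 in sgNS and from 495, 522 and 528 to 424, 435 and 455 in sgZBTB11 #1, while sgZBTB11 #2 went from 431, 396 and 455 to 494, 509 and 512. On the count scale these were log2 changes of -0.31 ± 0.04, -0.23 ± 0.04 and 0.25 ± 0.04, but in log2 TPM the first 2 were 0.08 and 0.03, or -0.08 and -0.05 relative to all genes. SREBF1 in sgNS had 163, 184 and 178 CPM with DMSO and 150, 155 and 152 with DOX, a change of -0.18 ± 0.05 on the count scale and 0.12 in log2 TPM (-0.05 relative to all genes). With sgZBTB11 #2 it had 149, 139 and 161 against 167, 171 and 170 CPM (0.19 ± 0.05), and with sgZBTB11 #1 164, 172 and 171 against 153, 164 and 174 (-0.04, adjusted p = 0.54). SREBF2 was higher with sgZBTB11 #1 alone by the threshold (0.17 ± 0.05; 0.05 and 0.03 in sgNS and sgZBTB11 #2). ELOVL6 and FADS2 rose with sgNS (0.36 and 0.34) and sgZBTB11 #1 (0.25 and 0.28) and did not pass with sgZBTB11 #2 (0.01 and -0.13), where FADS1 was lower (-0.18, adjusted p = 0.043), a call lost when any of 5 libraries was left out. The calls of HMGCS1, CYP51A1 and SREBF1 with sgZBTB11 #2, and of ACAT2, FADS2, INSIG1 and SREBF2 with sgZBTB11 #1, were each lost without 1 library, those of FDFT1 and ELOVL6 with sgZBTB11 #1 without any of 2, and with sgNS those of SC5D and FADS1 without any of 3 and that of TM7SF2 without any of 13.

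**Figure D3:**
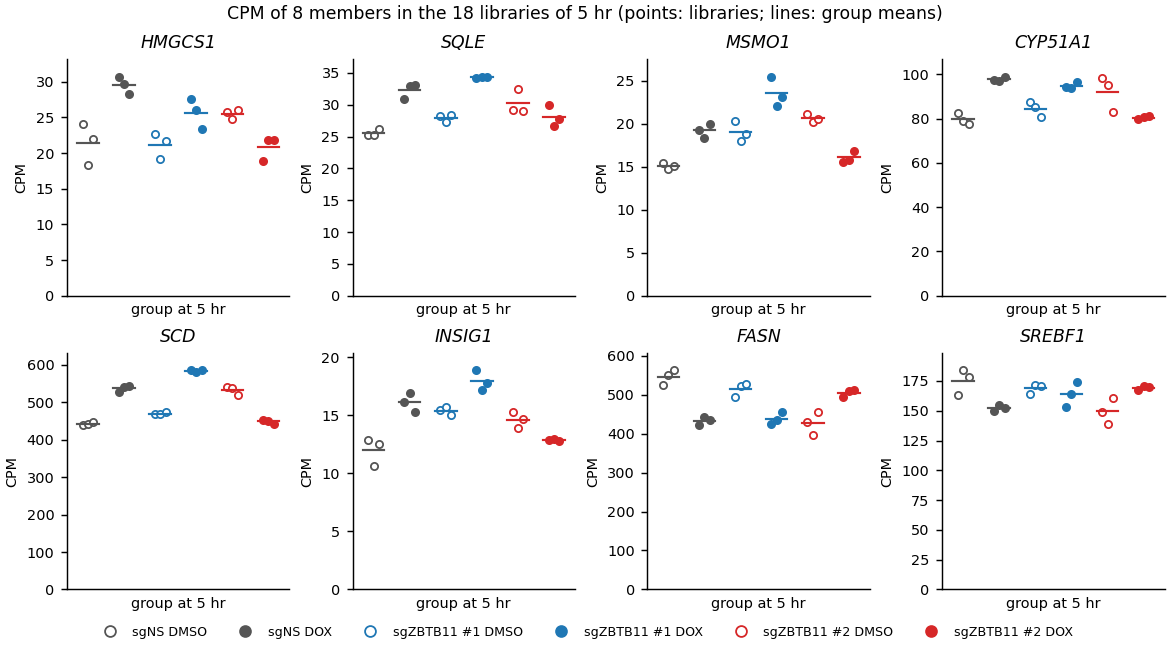
CPM of 8 members (y axes, from 0) in the 18 libraries of 5 hr, with a point for each library, open for DMSO and filled for DOX, coloured by guide, and a line for each group mean. HMGCS1, MSMO1, CYP51A1 and SCD lie higher with DOX in sgNS and sgZBTB11 #1 and lower with DOX in sgZBTB11 #2. FASN shows the reverse order in CPM, and in log2 TPM its values for sgNS (0.08) and sgZBTB11 #1 (0.03) are positive but below the median of all genes.

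The DMSO libraries of the guides also differed at 5 hr. Members with DMSO in sgZBTB11 #2 were higher than with DMSO in sgNS in 9 cases and lower in 6 (32.2% of all genes passed), and in sgZBTB11 #1 higher in 4 and lower in 5 (32%). MSMO1 was 0.47 ± 0.07 higher with DMSO in sgZBTB11 #2 than in sgNS, SC5D 0.31, ELOVL6 0.31, INSIG1 0.30, SCD 0.28 and HMGCS1 0.27, while FASN was 0.34 and SREBF1 0.22 lower. These are the DMSO libraries from which the DOX response of sgZBTB11 #2 is measured, so the comparisons share them.

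Net of sgNS, which takes the mean response of both ZBTB11 guides less that of sgNS, 4 members were higher, of which ACACA and SREBF1 were negative in log2 TPM and 0.07 and 0.11 above its all-gene median, and 7 lower at 5 hr (30% of all genes passed). HMGCS1 was at -0.48 ± 0.10, INSIG1 at -0.42 ± 0.10, MSMO1 at -0.39 ± 0.09 and CYP51A1 at -0.32 ± 0.05, and FASN at 0.32 ± 0.05. This mean joins guides that differed: the response of sgZBTB11 #2 less that of sgZBTB11 #1 passed for 16 members (35.1% of all genes), at -0.66 ± 0.10 for MSMO1, -0.56 ± 0.11 for HMGCS1, -0.55 ± 0.03 for SCD and 0.48 ± 0.06 for FASN. Taken alone, sgZBTB11 #1 net of sgNS passed for LSS only (0.24 ± 0.06; 6.93% of all genes) and sgZBTB11 #2 for 18 members (41%). ZBTB11 itself had not fallen with sgZBTB11 #1 at this time.

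At day 1 and day 3 the DOX responses were small. At day 1, 1 member was higher and 1 lower with sgNS (2.19% of 16275 genes passed), 0 and 2 with sgZBTB11 #1 (4.84%), and 1 and 3 with sgZBTB11 #2 (7.88%). FASN was the only member lower in all 3 guides at day 1, among 113 such genes (0.694% of those tested). It had 358 and 373 CPM with DMSO and 303, 316 and 338 with DOX in sgNS, 397, 393 and 387 against 333, 356 and 355 in sgZBTB11 #1, and 400, 415 and 424 against 362, 346 and 345 in sgZBTB11 #2. In each guide every library with DOX was below every library with DMSO, with log2 changes of -0.18 ± 0.04, -0.15 ± 0.03 and -0.22 ± 0.03 (adjusted p = 0.0045, 0.003 and 2.5e-05). The difference between the ZBTB11 guides and sgNS was -0.01, with a 95% interval of -0.09 to 0.08. Without replicate 2 of sgNS with DMSO the sgNS change was -0.15 (adjusted p = 0.19), and in log2 TPM the changes were -0.09, -0.11 and -0.18 and none passed (adjusted p = 0.58, 0.34 and 0.077).

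PMVK was the member with the largest response at day 1, in sgNS only by the threshold: 16.2 and 16.5 CPM with DMSO and 22.5, 20.3 and 21.5 with DOX (0.41 ± 0.08, adjusted p = 0.0031), a call lost when either DMSO library was left out (adjusted p up to 0.073). Its libraries with sgZBTB11 #1 were 15.4, 15.6 and 16.4 against 15.4, 15.9 and 15.9 CPM, and the net change of -0.38 did not pass (adjusted p = 0.21). With sgZBTB11 #2, HMGCS1 was higher (32.7, 31.1 and 32.7 to 37.8, 34.1 and 36 CPM; 0.18 ± 0.05) and MVD (33.7, 31.1 and 31.7 to 27.7, 29.6 and 26.7; -0.19 ± 0.06) and SREBF1 (239, 242 and 249 to 230.0, 216 and 220; -0.12 ± 0.03) lower. With sgZBTB11 #1, SCD was lower (541, 543 and 563 to 502, 507 and 506; -0.10 ± 0.02). The calls of HMGCS1, MVD, SREBF1 and SCD were lost without any of 4, 5, 3 and 2 libraries.

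At day 3 no member passed with sgNS by edgeR (0.877% of 16645 genes). An unadjusted p under 0.05 was reached by 4, and the share of all genes at that p was not counted. With sgNS at day 3, 0 were called by DESeq2 (0.673% of all genes) and 3 by limma on log2 TPM (1.56%). FASN and SCD were lower with sgZBTB11 #1 (-0.17 ± 0.04 and -0.11 ± 0.03; 0.733% of all genes) and INSIG1 with sgZBTB11 #2 (1.17%). INSIG1 had 43.8, 46.6 and 46.6 CPM with DMSO and 39.1, 37.1 and 39.8 with DOX (-0.24 ± 0.05, adjusted p = 0.0046), and this call held when each of the 18 libraries was left out in turn, whereas that of FASN was lost without any of 4 libraries and that of SCD without any of 12. FASN changed by -0.14 with sgNS (adjusted p = 0.083) and -0.12 with sgZBTB11 #2 (adjusted p = 0.11), and its net change was -0.01, with an interval of -0.10 to 0.08.

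Net of sgNS no member passed at day 1 (0.0737% of all genes) or day 3 (0.493%) by edgeR, DESeq2 or limma. At an unadjusted p under 0.05 edgeR gave 4 and 3 members. The share of all genes at that unadjusted p was not counted, so these numbers cannot be set beside it. The net changes lay between -0.38 (PMVK) and 0.11 at day 1 and between -0.22 (ELOVL6) and 0.17 (HMGCS1) at day 3, with standard errors of 0.03 to 0.14 and 0.03 to 0.16. Simulated counts for the net test of day 3 gave a call to 86% of genes with a true log2 change of 0.5 and to 26% with 0.25. At these 2 times ZBTB11 was lower with both guides (-0.28 and -0.59 at day 1, -0.45 and -0.79 at day 3, for sgZBTB11 #1 and #2). With sgNS all ZBTB11 libraries with DOX were also below those with DMSO at day 1, by -0.11 ± 0.06 (adjusted p = 0.40), and overlapped at day 3 (-0.06, adjusted p = 0.71).

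**Figure D4:**
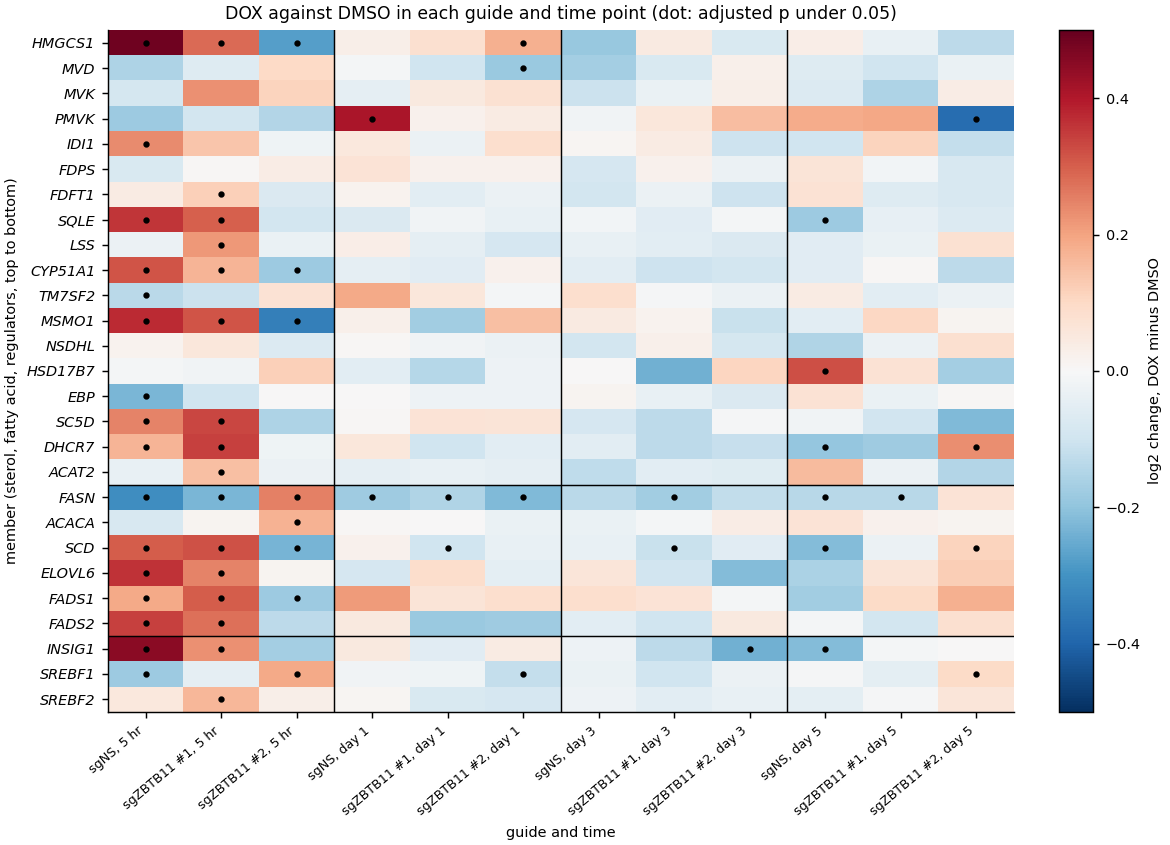
Log2 change with DOX (colour, red higher and blue lower) of the 27 tested members (rows) in each guide and time (columns), with a dot where the adjusted p was under 0.05. The columns of 5 hr hold most dots, 16 with sgNS, 16 with sgZBTB11 #1 and 8 with sgZBTB11 #2, and FASN is the row with a dot in every guide at day 1. The blue cells of FASN, SREBF1 and TM7SF2 with sgNS and of FASN with sgZBTB11 #1 at 5 hr have the other sign in log2 TPM, where they stay below the median of all genes.

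At day 5 members passed mainly with sgNS, 1 higher and 5 lower (17.3% of 16809 genes), and with sgZBTB11 #2, 3 higher and 1 lower (9%). With sgZBTB11 #1 only FASN was lower (-0.14 ± 0.03; 1.14%), a call lost without any of 4 libraries. SCD had 545, 564 and 542 CPM with DMSO and 466, 475 and 485 with DOX in sgNS, and 511, 512 and 519 against 547, 560.0 and 561 in sgZBTB11 #2. Neither pair of groups overlapped, and the log2 changes were -0.22 ± 0.03 and 0.11 ± 0.02 (adjusted p = 1.2e-09 and 0.0013). In sgZBTB11 #1 the SCD libraries touched, at 510 and 508 against 491, 491 and 508. DHCR7 also moved in opposite ways, from 29.2, 31.7 and 31.3 to 26.5, 27.1 and 27.6 CPM in sgNS (-0.19 ± 0.06) and from 26.4, 26.8 and 25 to 32.1, 29.4 and 30.5 in sgZBTB11 #2 (0.23 ± 0.06).

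With sgNS at day 5, HSD17B7 was higher (7.51, 7.53 and 7.82 to 10.6, 9.72 and 8.55 CPM; 0.32 ± 0.10), and SQLE (28.6, 30.4 and 29.6 to 24.6, 26.8 and 27.2; -0.18 ± 0.06), FASN (-0.14 ± 0.03) and INSIG1 (27.7, 29.4 and 32 to 25.7, 24.3 and 27.4; -0.22 ± 0.07) lower. With sgZBTB11 #2, PMVK was lower (8.09, 8.15 and 9.37 to 6.71, 7.18 and 5.79 CPM; -0.38 ± 0.11) and SREBF1 higher (369, 363 and 359 to 385, 403 and 379; 0.09 ± 0.03). The calls of HSD17B7, SQLE, INSIG1 and DHCR7 with sgNS were lost without any of 4, 3, 5 and 3 libraries, and those of PMVK, SREBF1 and DHCR7 with sgZBTB11 #2 without any of 3, 3 and 1. The share of counts from mitochondrial DNA went from 26 to 26.4% to 29.4 to 29.8% with DOX in sgNS, from 33.6 to 33.7% to 32.8 to 33.1% in sgZBTB11 #1 and from 31 to 31.5% to 31.4 to 31.5% in sgZBTB11 #2, and its part in the sgNS response was not tested.

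Net of sgNS, 4 members were higher and 2 lower at day 5 (19.2% of all genes passed), and the response of sgZBTB11 #2 differed from that of sgZBTB11 #1 for 4 (2.58%). SCD stood at 0.26 ± 0.03 (adjusted p = 4.1e-09), and passed with each ZBTB11 guide alone (0.19 ± 0.04 and 0.33 ± 0.04), where 11.5% and 19.3% of all genes passed. FADS1 was at 0.31 ± 0.10, DHCR7 at 0.22 ± 0.07, FASN at 0.10 ± 0.04 (-0.05 with length and GC trends removed), ACAT2 at -0.25 ± 0.08 (0 in log2 TPM, -0.18 relative to all genes) and HSD17B7 at -0.37 ± 0.13. Apart from SCD, these calls were each lost without any of 4 to 9 libraries, and the net count fell to 1 without replicate 1 of sgNS with DOX, to 2 without replicate 1 or 3 of sgNS with DMSO, and to 3 without replicate 1 of sgZBTB11 #2 with DOX. In sgZBTB11 #1 SCD itself changed by -0.03 on the log2 scale (adjusted p = 0.77), so its net value there consists mostly of the sgNS change. The DMSO libraries of day 5 also differed. Relative to sgNS with DMSO, SCD was at -0.13 ± 0.03 in sgZBTB11 #1 and -0.11 ± 0.02 in sgZBTB11 #2 (adjusted p = 0.00036 and 0.00074). DHCR7 was at 0.01 ± 0.06 and -0.25 ± 0.06 in the same order (adjusted p = 0.96 and 0.001). The net values are measured from these libraries. In the fatty acid arm 3 of 6 members passed, all higher, and in the sterol arm 3 of 18, with medians of 0.18 and -0.05 beside 0.00 over all genes.

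**Figure D5:**
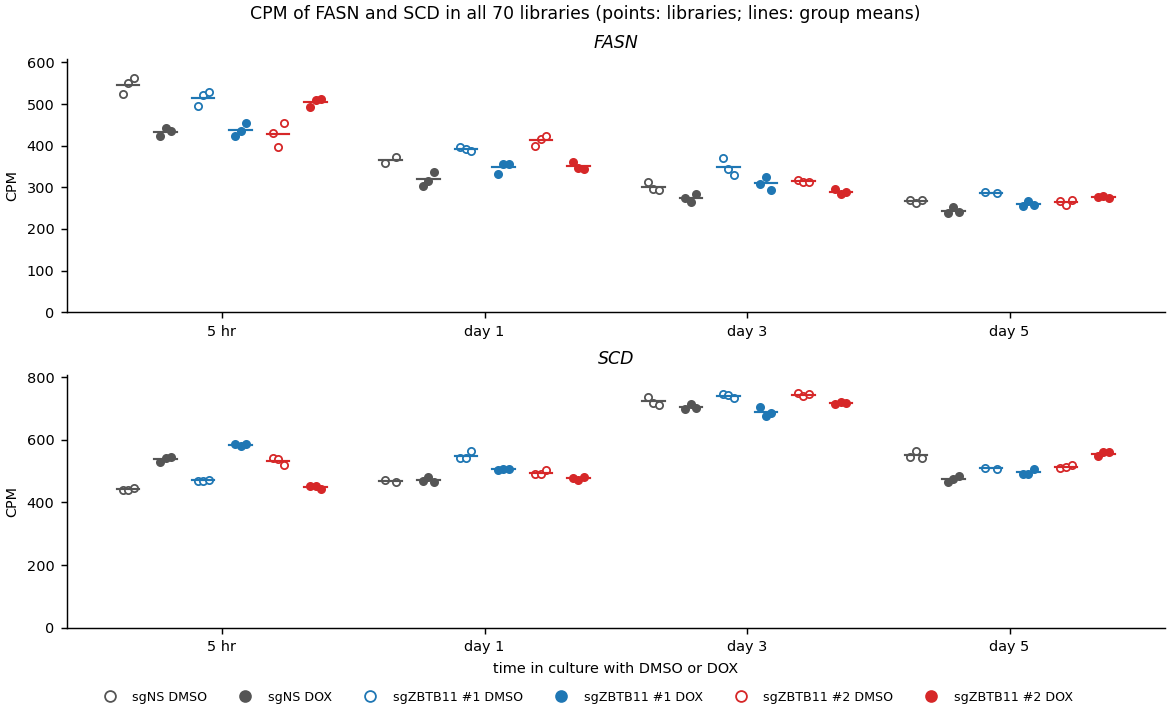
CPM of FASN and SCD (y axes, from 0) in all 70 libraries by time, with a point for each library, open for DMSO and filled for DOX, coloured by guide, and a line for each group mean. FASN goes down over the times in DMSO (median 522 at 5 hr, 269 at day 5) and lies lower with DOX in all 3 guides at day 1, and SCD has its highest level at day 3 (711 to 748 CPM with DMSO). The first step of FASN in DMSO, and its fall with DOX at 5 hr in sgNS and sgZBTB11 #1, are slightly positive in log2 TPM (0.03, 0.08 and 0.03) and below its all-gene median.

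The other lipid lists changed at 5 hr and little at day 1 and day 3. Of 10 genes of SREBP processing, 8 were higher and 1 lower with sgNS, 5 and 0 with sgZBTB11 #1, and 1 and 2 with sgZBTB11 #2, beside 40.9%, 32.8% and 17% of all genes passing. Of 12 genes of sterol uptake, storage and efflux the counts were 5 and 1, 6 and 0, and 0 and 3, with SOAT1, which esterifies cholesterol, at 0.45, 0.47 and -0.20. LBR changed by 0.54, 0.37 and -0.28. At day 1 and day 3 at most 2 genes of any list passed in any guide.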

How the data were processed

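The authors deposited RSEM expected counts and TPM per gene for 70 libraries, with RSEM and the build GRCh38.p14 named in the submitters' processing notes. The sources used here name no aligner, annotation release or strand setting. The deposited expected counts were rounded (5.13% of values were not whole), and the deposited TPM were used for levels between genes and as an alternative, with the unit read from the file headers. Genes passing filterByExpr (15623, 16275, 16645 and 16809 at 5 hr, day 1, day 3 and day 5, and 17598 over the 34 DMSO libraries) were scaled by TMM and fitted with edgeR 4.0.16 (robust quasi-likelihood F test, R 4.3.3): the libraries of a time point for DOX and net contrasts, the 12 DMSO groups for time. P-values were Benjamini-Hochberg adjusted over all genes tested, with a threshold of 0.05. CPM are TMM-scaled over all 70 libraries, and errors of log2 changes are standard errors. The fits were tested on simulated data.

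The members and lists were chosen with earlier results of these data known. All 28 members are accounted for. Values in every library (for groups over 5, lowest, median and highest) were due for HMGCS1, SQLE, INSIG1, SREBF1, SREBF2, FASN and SCD and for up to 4 members with the largest change past the threshold per test, and up to 2 genes were named per other list and kind of comparison; other genes and values were chosen after they were seen. No libraries of 1 group were identical (68 pairs). Alternatives were a replicate block, no filter, RLE scaling, DESeq2 1.42.0, limma 3.58.1 on log2(TPM + 1) of genes with TPM of at least 1 in 3 libraries, a length trend, 1 fit of all 70 libraries and each library left out; a length and GC trend was added after seeing the data.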

Additional observations from a re-analysis of the deposited data

Results flagged for a closer look

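Each result here differed between guides in a direct test of the difference (edgeR, adjusted p under 0.05). At 5 hr the DOX response net of sgNS passed for 11 members: HMGCS1 (-0.48), INSIG1 (-0.42), MSMO1 (-0.39), CYP51A1 (-0.32), FADS2 (-0.27; lost without any of 9 libraries), SQLE (-0.26), SCD (-0.26), FASN (0.32), SREBF1 (0.25; -0.02 in log2 TPM, 0.11 relative to all genes), EBP (0.18) and ACACA (0.17; -0.06 in log2 TPM, 0.07 relative to all genes). Of all genes, 30% passed this net test at 5 hr. The net response passed for 1 member with sgZBTB11 #1 alone (6.93% of all genes) and for 18 with sgZBTB11 #2 alone (41%). The guides differed from each other in 16 members (35.1%). At day 5 the net response passed for 6 members: HSD17B7 (-0.37), ACAT2 (-0.25; 0 in log2 TPM, -0.18 relative to all genes), FASN (0.10; -0.05 with length and GC trends removed), DHCR7 (0.22), SCD (0.26) and FADS1 (0.31). Of all genes, 19.2% passed this net test at day 5. The net response passed for 1 member with sgZBTB11 #1, SCD (11.5% of all genes), and for 7 with sgZBTB11 #2 (19.3%). The guides differed in 4 members, DHCR7, FASN, SCD and SREBF1 (2.58% of all genes). These contrasts share the sgNS libraries.

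In DMSO, the step from 5 hr to day 1 differed from that of sgNS in 5 members with sgZBTB11 #1 and 8 with sgZBTB11 #2. Of all genes, 13.6% and 16.9% did so. The step from day 1 to day 3 differed in 5 and 1 members (18.6% and 5.88% of all genes). That from day 3 to day 5 differed in 1 and 6 (3.25% and 6.91%). No cause was tested.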

How the results depend on the processing

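The counts of members past the threshold over culture time kept within 1.5 times under every alternative (25 to 25, 21 to 24, 23 to 25 and, for the whole span, 26 to 27 with each library left out), and so did those at 5 hr with sgNS (13 to 16), with sgZBTB11 #1 (13 to 17) and net of sgNS (10 to 13). With each library left out, the other counts ranged at day 1, day 3 and day 5 from 0 to 3, 0 to 1 and 2 to 7 with sgNS, from 1 to 2, 0 to 2 and 0 to 1 with sgZBTB11 #1, from 1 to 4, 1 to 1 and 2 to 4 with sgZBTB11 #2 (6 to 8 at 5 hr), and from 0 to 0, 0 to 0 and 1 to 6 net of sgNS. A group left with 1 library is assumed to vary like the others.

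In log2 TPM the median of all genes moved by 0.17 with sgNS at 5 hr, by -0.13 net at 5 hr, by -0.16 with sgNS and 0.19 net at day 5, and by 0.13 and -0.18 at the first and last time steps, and member values on that scale are to be read relative to it. Of 177 member changes past the threshold, 15 turned sign in log2 TPM and 1 did so relative to the median, ELOVL6 over the whole span (0.06). In log2 TPM, 17 members passed with sgNS (32.8% of all genes) and 14 net of sgNS (31.7%) at day 5. With sgNS 1 passed at day 1 (0.485%) and 3 at day 3 (1.56%). With sgZBTB11 #2 the counts were 4 at 5 hr (8.47%), 0 at day 1 (1.87%) and 0 at day 3 (0.55%). With sgZBTB11 #1 they were 0 at day 1 (1.09%), 0 at day 3 (0.171%) and 0 at day 5 (0.124%). The signs that turned in log2 TPM were, at 5 hr with sgNS, TM7SF2 (0.04), FASN (0.08) and SREBF1 (0.12), with sgZBTB11 #1 FASN (0.03), and net ACACA (-0.06) and SREBF1 (-0.02); ACAT2 net at day 5 (0); TM7SF2 (0.08), MSMO1 (0.03) and FASN (0.03) from 5 hr to day 1; MVD (-0.05), LSS (-0.14), SREBF1 (-0.12) and SREBF2 (-0.16) from day 3 to day 5; and ELOVL6 (0.07) over the whole span. Removing the length trend turned SCD from 5 hr to day 1 (-0.04), and the length and GC trends turned it too (-0.02), with TM7SF2 with sgNS at 5 hr (0.13) and FASN net at day 5 (-0.05).

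DESeq2 called 2 members with sgZBTB11 #2 at day 1 (3.3% of all genes), 2 with sgNS at day 5 (11.9%) and 2 net at day 5 (13.7%). With no filter, 1 was called with sgZBTB11 #1 (0.407%), 2 with sgZBTB11 #2 (0.688%) and 1 with sgNS (0.702%) at day 3. The length trend left 3 net at day 5 (17.4%). The length and GC trends left 2 net at day 5 (17.7%) and 4 with sgNS at day 1 (3.59%). With sgZBTB11 #2 they left 2 at day 1 (4.54%) and 2 at day 3 (2.04%). In 1 fit of all 70 libraries 0 were called with sgZBTB11 #1 at day 5 (0.709%). The causes were not tested. With the replicate block 26 members passed over the whole span, as without it, and of 182 values 1 lost its call. The 34 pairs of same-numbered libraries correlated at -0.04 to 0.12 (12 best with their own number), so the numbers do not pair them. Depth and replicate number limit calls to larger changes. In simulated counts, 26% of changes of 0.25 on the log2 scale were found for the net response at day 3, and 80% for the step from day 1 to day 3. For that step the simulation changed 50 of 16903 genes at each size of change, while in the data 79.8% of all genes passed. The adjusted threshold was therefore not the same, and the 80% does not give the share found in the data.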
